A study of Mus musculus with 6 samples.

Results

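The 32 genes of protein folding and stress in the endoplasmic reticulum (ER) were taken by name from the 31053 genes of the matrices, and all 32 names are in the gene list of each of the 6 libraries. They are the heat shock family chaperones Hspa5, Hsp90b1 and Hyou1, the lectin chaperones Calr and Canx, the disulfide isomerases P4hb, Pdia3, Pdia4 and Pdia6, the BiP cofactors Dnajb9, Dnajb11, Dnajc3 and Sdf2l1, the secreted stress proteins Manf and Creld2, the transcriptional regulators Xbp1, Atf4, Ddit3 and Trib3, the ER-associated degradation (ERAD) genes Herpud1, Syvn1, Sel1l and Edem1, the translocon genes Sec61b, Ssr1, Ssr2, Ssr3 and Ssr4, the collagen chaperones Serpinh1 and Fkbp10, and the KDEL receptors Kdelr2 and Kdelr3. The rule that names them uses no measured value, but the set was chosen with earlier results of these data known. The question was whether wound fibroblasts near Ndrg2-KO dendritic cells (DCs) held more of this secretory machinery as a set.

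Single-cell RNA was sequenced from the 3′ end in 6 droplet libraries, 1 per condition. Of these, 3 came from DCs grown from mouse bone marrow with GM-CSF, which were untreated, stimulated with VD3 (the active form of vitamin D3, 1e-06 M for 24 h from day 7 of culture), or edited with Cas9 to knock out Ndrg2. The other 3 came from splinted full-thickness excisional skin wounds of 6-week-old wild-type C57BL/6J mice. These wounds received a collagen-pullulan hydrogel seeded with control DCs, seeded with Ndrg2-KO DCs, or left blank, and were explanted on day 10, with 5 mice per group. Each wound group is 1 library, so differences between its mice cannot be seen. The labels call the control DCs of the wounds untreated, whereas the methods of the study describe nucleofection with non-targeting guides, and the cultured untreated DCs were not nucleofected. Editing and nucleofection therefore cannot be told apart in the comparison of cultured Ndrg2-KO with untreated DCs.

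Secreted and membrane proteins enter the ER through the Sec61 channel, to which the TRAP complex (encoded by Ssr1 to Ssr4) is bound. They are folded there by BiP (the product of Hspa5), its cofactors, the calnexin and calreticulin cycle and the disulfide isomerases, and escaped chaperones are returned from the Golgi by KDEL receptors. When unfolded protein builds up, the sensors IRE1, ATF6 and PERK start the unfolded protein response (UPR), in which spliced XBP1 and cleaved ATF6 raise chaperones and ERAD, and ATF4 raises amino acid and redox genes and, with prolonged stress, Ddit3 (CHOP). Fibroblasts of healing skin secrete much collagen, which needs the prolyl and lysyl hydroxylases and the chaperone HSP47 (encoded by Serpinh1).

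Cells with at least 300 genes, under 100000 unique molecular identifiers (UMIs) and under 10% mitochondrial UMIs were kept. This left 7257 to 8825 cells per DC library with a median of 12089 to 16316 UMIs, and 1948, 5681 and 3403 cells from the control DC, Ndrg2-KO DC and blank hydrogel wounds with medians of 10795, 4415 and 5603 UMIs. Libraries shared at most 0.264% of the barcodes of the smaller library. Ndrg2 was counted at 4.62, 1.42 and 0.884 counts per 1000000 UMIs (CPM) in the untreated, VD3 stimulated and Ndrg2-KO cultures, and since reads lie at the 3′ end the count does not show whether the gene is disrupted. UMIs were summed over the cells of a class and groups were compared by the log2 ratio of CPM. A gene with at least 50 UMIs in the 2 sums was called higher or lower at a log2 ratio of at least 0.5 or at most -0.5. With 1 library per group no test was possible and no p-value is given. Exact 95% intervals cover counting error only.

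Fibroblast-like cells were the cluster that passed the fibroblast markers, and all 8 markers were found in each wound library, with summed levels of 110146, 92204 and 92009 CPM for control DC, Ndrg2-KO DC and blank hydrogel wounds. They numbered 459, 440 and 295 cells, or 23.6%, 7.75% and 8.67% of the libraries. The 32 genes together stood at 9423, 10873 and 8760 CPM in these cells. After each cell was thinned to 2000 UMIs, the median share of UMIs from these genes was 0.90%, 1.05% and 0.80% per cell, and the interquartile ranges of the cells overlapped (0.65 to 1.15%, 0.80 to 1.25% and 0.60 to 1.0%).

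Against control DC wounds, 4 of the 31 members with enough UMIs were higher in fibroblast-like cells of Ndrg2-KO DC wounds, against 16.2% of all 10858 genes, and 0 were lower, against 6.55% of all genes. Against blank hydrogel wounds 6 of 31 were higher (12.8% of all genes) and 0 lower (6.52%). The median member ratios were 0.17 and 0.27 on the log2 scale, beside 0.07 and 0.06 over all genes. The difference was uneven: Ssr4, Sec61b, Ssr2 and Sdf2l1 were called in both comparisons, Manf and Kdelr3 against blank hydrogels as well, and Hspa5, Dnajb9, Herpud1 and Atf4 had levels below those of control DC wounds. Both comparisons use the same Ndrg2-KO DC library and are not independent. Blank hydrogel and control DC wounds gave 0 members higher and 0 lower, where 6.35% and 4.98% of all genes were, with a median member ratio of -0.09. The comparisons with blank hydrogels depended on which cells were counted as fibroblast-like. Under 4 other definitions, 1 member was higher with Ndrg2-KO DCs than with blank hydrogels (7.79% to 8.37% of all genes), at a median of 0.11 to 0.12, and blank hydrogels stood above control DCs at a median of 0.14 to 0.17, with 3 or 4 members higher (10.5% to 11.2% of all genes). Sdf2l1 had a ratio of -0.41 against control DCs once each cell was thinned to 2000 UMIs, which leaves still fewer UMIs of this gene. No interval is given for that ratio.

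**Figure D1:**
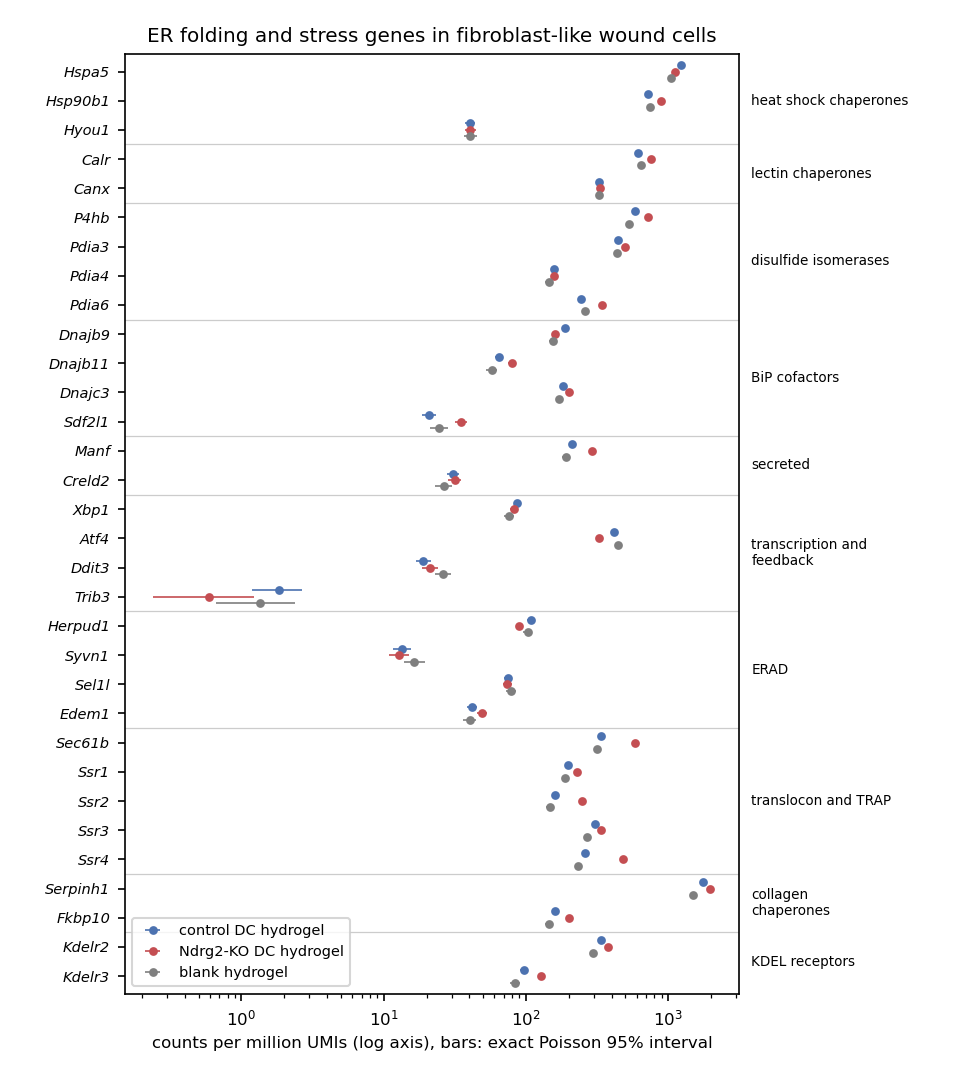
Levels of the 32 genes in fibroblast-like wound cells, in CPM on a log axis, with 1 point per wound library and exact Poisson 95% intervals as bars. Ssr4, Sec61b and Ssr2 of Ndrg2-KO DC wounds (479, 580 and 247 CPM) stand apart from both other libraries, while the Hspa5 points lie between 1052 and 1224 CPM.

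The translocon genes Ssr4 and Sec61b gave the highest ratios of the members with enough UMIs. Ssr4, the delta subunit of TRAP, stood at 258 CPM with control DCs, 479 CPM with Ndrg2-KO DCs and 233 CPM with blank hydrogels. Its log2 ratio was 0.89 (95% interval 0.83 to 0.96) against control DCs and 1.04 (0.97 to 1.12) against blank hydrogels, so the Ndrg2-KO DC library alone was high. Sec61b, the beta subunit of the channel, stood at 338, 580 and 317 CPM in the same order, and its ratios were 0.78 (0.73 to 0.83) and 0.87 (0.81 to 0.94). Ssr2, the beta subunit of TRAP, was counted at 160, 247 and 147 CPM, with ratios of 0.62 (0.54 to 0.70) and 0.74 (0.65 to 0.84). The remaining TRAP subunits had smaller differences although all subunits belong to 1 complex: Ssr1 stood at 197, 230 and 187 CPM (ratios 0.22 and 0.30) and Ssr3 at 307, 338 and 267 CPM (0.14 and 0.34).

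The heat shock family and lectin chaperones differed among themselves. Hspa5, which encodes BiP, the chaperone that also holds the stress sensors inactive, was counted at 1224, 1124 and 1052 CPM in control DC, Ndrg2-KO DC and blank hydrogel wounds. Its ratio was -0.12 (-0.16 to -0.09) against control DCs and 0.09 (0.06 to 0.13) against blank hydrogels, so control DC wounds were the highest. Hsp90b1, the HSP90 of the ER, stood at 724, 896 and 742 CPM (ratios 0.31 and 0.27), and Hyou1, an exchange factor of BiP, was level at 40.6, 40.5 and 40.7 CPM. Calr, the soluble lectin chaperone, stood at 611, 753 and 639 CPM (0.30 and 0.24), whereas Canx, its membrane-bound relative, was at 326, 332 and 327 CPM.

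Disulfide isomerases form and rearrange the disulfide bonds of new proteins. Pdia6 was the member just under the limit, at 242 CPM with control DCs, 341 CPM with Ndrg2-KO DCs and 262 CPM with blank hydrogels and ratios of 0.49 (0.43 to 0.56) and 0.38 (0.30 to 0.46). P4hb, which is also the beta subunit of collagen prolyl 4-hydroxylase, stood at 583, 717 and 532 CPM (0.30 and 0.43). Pdia3 was counted at 442, 497 and 435 CPM and Pdia4 at 157, 158 and 145 CPM. Against control DCs the isomerases thus ran from a ratio of 0.01 for Pdia4, which was level, to 0.49 for Pdia6. Against blank hydrogels the ratio of P4hb (0.43) was above that of Pdia6 (0.38).

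Among the genes that work with BiP, Sdf2l1, part of a BiP complex that slows aggregation, stood at 20.9, 35.0 and 24.4 CPM. Its ratios of 0.74 (0.52 to 0.96) and 0.52 (0.27 to 0.77) rest on few UMIs, and the ratio against control DCs was -0.41 once each cell was thinned to 2000 UMIs. Dnajb11, a cofactor that delivers substrates to BiP, was counted at 64.9, 79.9 and 57.5 CPM (0.30 and 0.47) and Dnajc3, also an inhibitor of PERK, at 182, 201 and 172 CPM (0.15 and 0.22). Dnajb9, a cofactor that also represses IRE1, went the other way, with 189 CPM in control DC wounds and 161 and 154 CPM in Ndrg2-KO DC and blank hydrogel wounds. The secreted stress protein Manf stood at 212, 289 and 190 CPM, with ratios of 0.45 (0.37 to 0.52) and 0.61 (0.52 to 0.69). Creld2, secreted under ER stress as well, was at 30.6, 31.5 and 26.5 CPM.

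The regulators of the UPR were not called in either direction. Atf4, the transcription factor downstream of PERK, was counted at 419, 328 and 446 CPM. Its ratios of -0.36 (-0.42 to -0.30) and -0.45 (-0.51 to -0.38) were the lowest of the members with enough UMIs, and the Ndrg2-KO DC library lay below both others. Xbp1, whose splicing 3′ counts do not show, stood at 87.0, 81.8 and 75.6 CPM, and Ddit3 at 19.0, 21.2 and 26.1 CPM. Trib3, a target of ATF4 and CHOP, had 26, 7 and 11 UMIs and did not reach the UMI minimum in any pair. The ERAD genes also stayed near or below the other wounds: Herpud1, a scaffold of the degradation complex, was at 108, 89.9 and 103 CPM, the ubiquitin ligase Syvn1 at 13.4, 12.9 and 16.4 CPM and its partner Sel1l at 74.8, 74.1 and 78.8 CPM. Edem1, which hands misfolded glycoproteins to degradation, was the exception at 41.5, 49.2 and 40.3 CPM (0.24 and 0.29).

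The collagen chaperones and KDEL receptors were highest with Ndrg2-KO DCs. Serpinh1, which encodes HSP47, stood at 1756, 1981 and 1499 CPM (ratios 0.17 and 0.40), and Fkbp10, a prolyl isomerase for collagen, at 161, 200 and 145 CPM (0.31 and 0.46). Kdelr2 was counted at 337, 378 and 294 CPM (0.16 and 0.36). Kdelr3 stood at 96.4, 127 and 83.8 CPM, with ratios of 0.40 (0.29 to 0.50) and 0.60 (0.47 to 0.73). Blank hydrogel wounds were the lowest for each of these genes, which is why the ratios against them are the wider ones. Collagen genes themselves had median ratios of -0.26 against control DCs and 0.03 against blank hydrogels, and of -0.37 between blank hydrogels and control DCs, so they were highest with control DCs.

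**Figure D2:**
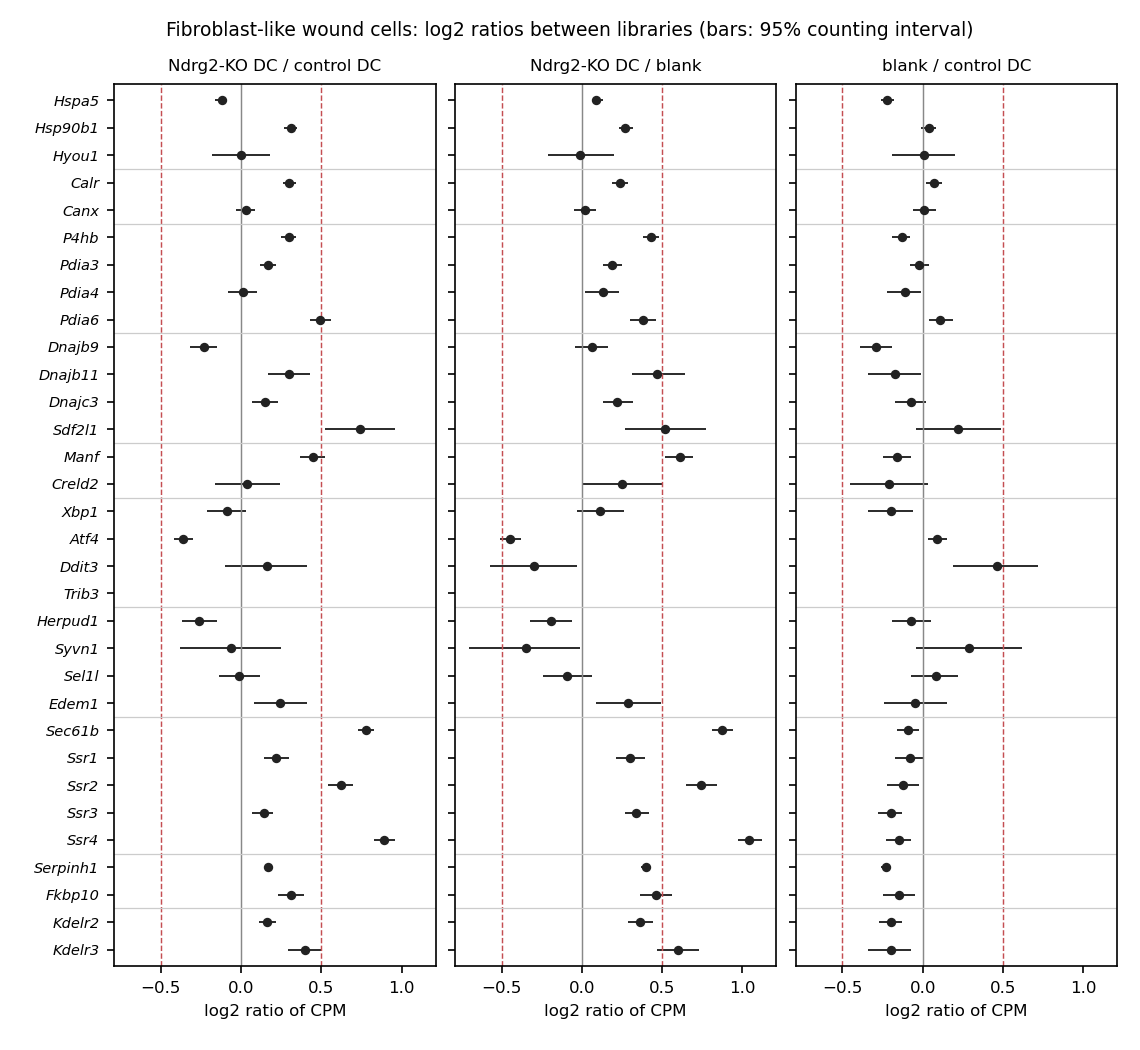
Log2 ratios of the members with enough UMIs in fibroblast-like cells, 1 panel per pair of wound libraries, with exact 95% intervals and the limits of the call. Ndrg2-KO DC wounds lie furthest to the right for Ssr4 and Sec61b and to the left for Atf4, and the panel of blank hydrogels against control DCs holds ratios from -0.29 to 0.46.

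Other genes of the secretory pathway were taken from lists of background knowledge, chosen with earlier results of these data known. Their counts stand beside 16.2% of all genes higher and 6.55% lower against control DCs and 12.8% higher against blank hydrogels. Genes with short transcripts had higher ratios over all genes, as given below. The lists of this and the next paragraph were not corrected for transcript length. Of the 12 oligosaccharyltransferase genes, which attach N-glycans beside the translocon, 5 were higher than in control DC wounds and 0 lower, with a median of 0.46. Against blank hydrogels 6 were higher with a median of 0.45. Ost4 stood at 399 CPM with Ndrg2-KO and 264 CPM with control DCs (0.59) and Ostc at 302 and 198 CPM (0.61). Of 18 other translocon and signal peptidase genes 5 were higher and 0 lower, among them the channel subunit Sec61g (921 and 572 CPM, ratio 0.69) and Sec11c of the signal peptidase (48.6 and 27.9 CPM, 0.80). Of 14 other folding genes 3 were higher and 0 lower: Fkbp2 stood at 120 and 65.9 CPM, Ppib, the cyclophilin of the collagen hydroxylation complex, at 1004 and 627 CPM, and Sil1, an exchange factor of BiP, at 27.8 and 17.4 CPM. Against blank hydrogels 4 of these translocon and signal peptidase genes and 3 of these folding genes were higher. Among 10 prolyl and lysyl hydroxylation genes 1 was higher than with control DCs and 2 than with blank hydrogels. Plod2, the lysyl hydroxylase of collagen telopeptides, was higher in both, at 386 CPM with Ndrg2-KO DCs, 153 CPM with control DCs and 161 CPM with blank hydrogels (1.34 and 1.26), and P3h1, a prolyl 3-hydroxylase, against blank hydrogels, at 90.6 and 61.7 CPM (0.56).

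Genes of vesicle traffic and stress signalling were read against the same shares of all genes. Of 19 genes of COPII export 0 were higher and 0 lower against control DC wounds, with a median of 0.14, and of 9 genes of COPI retrieval 1 was higher, the coat subunit Cope (139 and 88.7 CPM). Against blank hydrogels 3 of the COPII genes were higher, among them Tmed9 (254 and 161 CPM, 0.66) and Sec13 (88.5 and 57.5 CPM, 0.62), and 2 of the COPI genes, Cope (0.54) and Copb2 (180 and 127 CPM, 0.51). The 8 stress sensors and their partners gave 0 higher and 0 lower and a median of -0.13, with Eif2ak3 (PERK) at 18.4 against 24 CPM and Ern1 (IRE1) at 12.2 against 15.6 CPM, but Atf6b at 17.9 against 13.0 CPM and Mbtps2, a protease that cuts ATF6, at 9.48 against 7.38 CPM. Blank hydrogel wounds held 17.0 CPM of Eif2ak3 and 12.6 CPM of Ern1, so control DC wounds were the highest for both. Of 17 targets of ATF4, 1 was higher and 4 lower, where 16.2% and 6.55% of all genes were: the cystine transporter Slc7a11 stood at 31.1 against 8.5 CPM (28.3 CPM with blank hydrogels, so control DC wounds were the low ones), while Sesn2 was at 13.3 against 26.8 CPM and Vldlr at 28.6 against 57.6 CPM. Of 7 cytosolic heat shock genes 0 were called against control DCs, but 4 were higher against blank hydrogels (12.8% of all genes) and 4 lower in blank hydrogel than in control DC wounds (4.98%), so blank hydrogel wounds were the low ones. Of 13 measured genes of a further ERAD list 1 was higher against control DCs, the retrotranslocation factor Derl2 (36.4 and 24.3 CPM). Of 7 immediate early genes, which cell dissociation is known to raise, 0 were higher and 1 was lower, with a median of -0.33.

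Transcript length moved with the ratios, and its part in the result was not tested. In fibroblast-like cells of Ndrg2-KO against control DC wounds, all genes with a longest coding transcript of up to 1000 bases had a median ratio of 0.49 and 49.1% of them were higher. The medians were 0.29 from 1000 to 2000 bases, 0.07 from 2000 to 4000 bases and -0.07 above. The called members are short: Sec61b has 564 bases, Ssr4 800, Sdf2l1 1108 and Ssr2 1189, while Ssr3 has 2957 and Ssr1 9333. With the median of each gene's length class subtracted, 0 members were higher and 2 lower against control DCs (9.94% and 8.42% of all genes), with a median of 0.10, and 3 were higher and 2 lower against blank hydrogels (8.71% and 7.82%), with a median of 0.21. Ribosomal protein genes, mostly short as well, had a median ratio of 0.39 and took 15.5% of fibroblast UMIs with Ndrg2-KO DCs and 11.8% with control DCs. Between blank hydrogels and control DCs the length classes differed little, with 0.11 for the shortest and -0.01 for the longest.

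**Figure D3:**
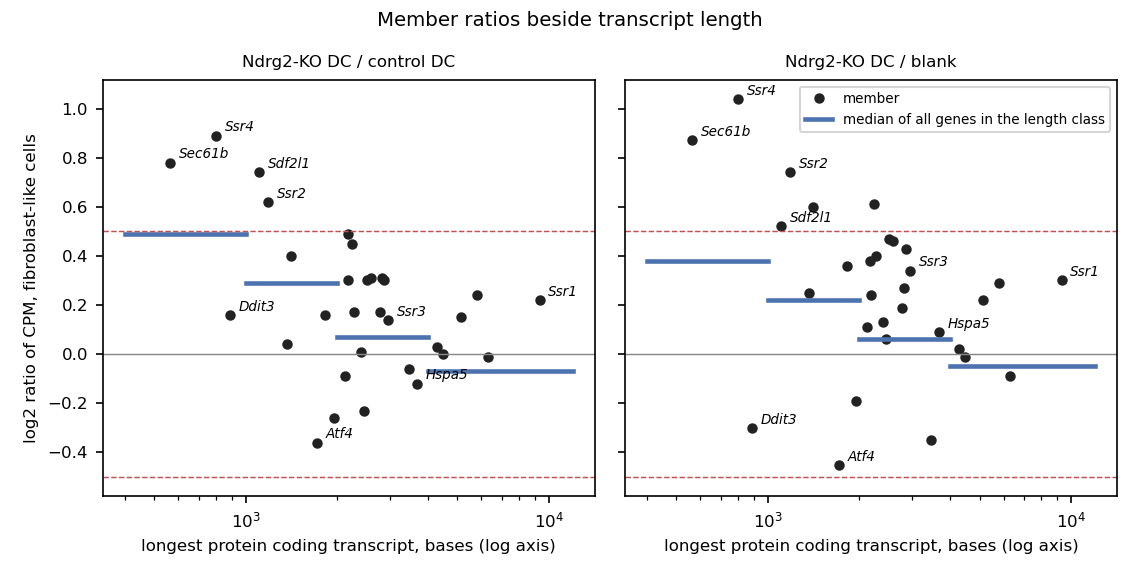
Log2 ratio of each member in fibroblast-like cells against the length of its longest coding transcript (log axis, bases), with the median of all genes in each length class as a horizontal blue bar and the limits of the call as dashed lines. Sec61b, Ssr4, Ssr2 and Sdf2l1 stand at the short end, where the median of all genes is raised as well (0.49 up to 1000 bases against control DCs).

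RNA of other cells also differed between the fibroblast-like cells of the libraries. All 7 neutrophil markers had UMIs in each library and summed to 69.2, 600 and 491 CPM in the control DC, Ndrg2-KO DC and blank hydrogel libraries, the 5 erythroid markers to 185, 1894 and 1196 CPM, and the 8 macrophage and monocyte markers to 79.6, 155 and 106 CPM. Each of these sums was highest with Ndrg2-KO DCs and lowest with control DCs, and their part in the result was not tested. The 6 B and plasma cell markers summed to 3.37, 377 and 10.7 CPM (Ms4a1 and Mzb1 at 0 with control DCs). Of 6268 Igkc UMIs with Ndrg2-KO DCs, 6257 lay in 1 barcode. Without that barcode, chosen after its values were seen, 4 members were still higher against control DCs (16.2% of all genes) and 5 against blank hydrogels (12.9%), with medians of 0.17 and 0.26.

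The fibroblast-like cells were not uniform in these genes, and the comparison with blank hydrogels depended on which cells were counted. At a finer resolution fibroblast-like cells fell into a cluster led by Myoc and Apod (285, 297 and 195 cells in control DC, Ndrg2-KO DC and blank hydrogel wounds) and one led by Tnc, Tnn and Crabp1 (197, 203 and 146 cells). The former made up 59.1%, 59.4% and 57.2% of them. The members summed to 8543, 9942 and 7671 CPM in the Myoc and Apod cells and to 10744, 13447 and 12716 CPM in the Tnc and Crabp1 cells. In the Myoc and Apod cells, 5 members were higher with Ndrg2-KO than with control DCs (17.7% of all genes) and 10 higher than with blank hydrogels (14.6%), with medians of 0.28 and 0.37.

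In the Tnc and Crabp1 cells, 8 members were higher and 1 lower with Ndrg2-KO than with control DCs (20.2% and 6.26% of all genes), but 1 was higher than with blank hydrogels (9.19%), with a median of 0.02. Blank hydrogels there gave 7 members higher and 1 lower than control DCs (17.2% and 7.31% of all genes) and a median of 0.30, so the control DC library was the low one. Manf stood at 251, 388 and 378 CPM and Pdia6 at 283, 447 and 452 CPM in control DC, Ndrg2-KO DC and blank hydrogel wounds. Ssr4 was again highest with Ndrg2-KO DCs, at 324, 512 and 356 CPM, but lowest with control DCs. Hspa5 was highest with control DCs in the Myoc and Apod cells (1371, 1083 and 1051 CPM) and lowest with them in the Tnc and Crabp1 cells (1056, 1218 and 1179 CPM).

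Part of the Tnc and Crabp1 cells (26, 63 and 49 cells) came from a cluster of 57, 123 and 86 cells that the markers had not named and that was led by Cfd, Crabp1 and the muscle gene Acta1. Its members summed to 11065, 13955 and 14608 CPM, with control DCs lowest. Under 4 other definitions of fibroblast-like cells, 1 member was higher against blank hydrogels (7.79%, 8.03%, 8.10% and 8.37% of all genes) at a median of 0.11 to 0.12, and blank hydrogels were above control DCs at a median of 0.14 to 0.17. Against control DCs, 6 members were higher under each of these definitions (16.8%, 17.6%, 18.2% and 18.2% of all genes). The counts and levels of a class cannot tell a change in each cell from a change in which cells make up the class.

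In the other named classes of wound cells the members together were not highest with Ndrg2-KO DCs. They summed to 6562, 5728 and 5975 CPM in macrophage-like cells (386, 666 and 412 cells of control DC, Ndrg2-KO DC and blank hydrogel wounds), to 2140, 2310 and 2732 CPM in neutrophil-like cells, and to 4758 and 5089 CPM in dendritic-like cells of the latter libraries. Control DC wounds held only 39 dendritic-like cells, and sums were given only for classes with at least 50 cells in a library. Fibroblast-like cells had the highest sum in each library among these classes.

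**Figure D4:**
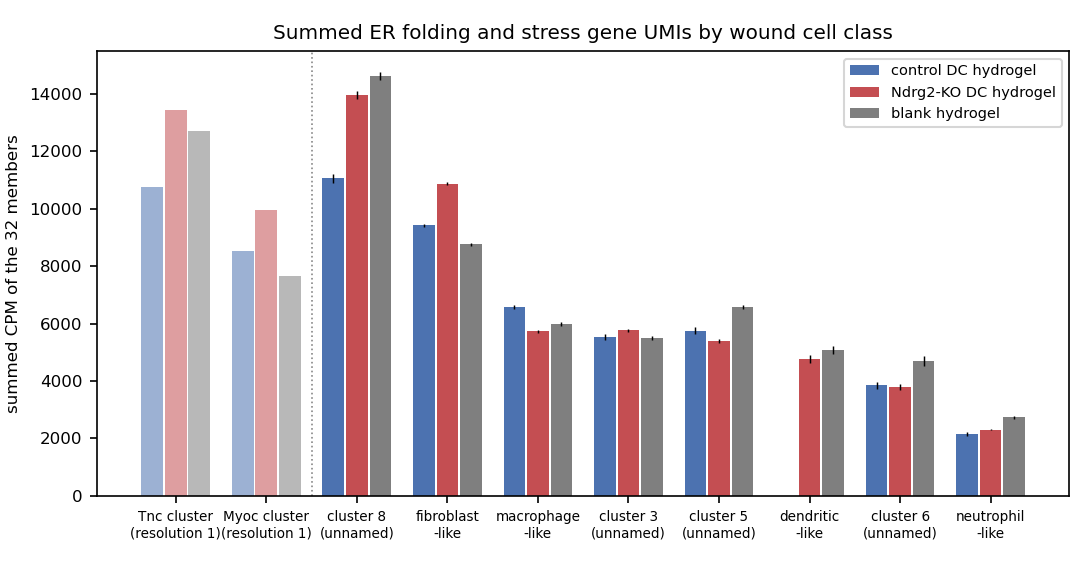
Summed CPM of the 32 genes by wound cell class or cluster, with 1 bar per library from 0 and exact Poisson 95% intervals as lines. The 2 paler sets on the left are the finer fibroblast clusters, which overlap the sets beside them and have no interval drawn. Fibroblast-like cells stand highest of the named classes (9423, 10873 and 8760 CPM) and neutrophil-like cells at 2140 to 2732 CPM.

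In macrophage-like cells the same translocon genes were highest with Ndrg2-KO DCs, while the set was not. Ssr4 stood at 78.6, 176 and 83.0 CPM in the control DC, Ndrg2-KO DC and blank hydrogel libraries (ratio 1.16 against control DCs), Sec61b at 155, 279 and 172 CPM (0.85) and Ssr2 at 32.6, 53.4 and 31.4 CPM (0.71). Sdf2l1 was at 42.6, 61.0 and 43.3 CPM (0.52). These were the 4 higher of 29 members against control DCs (16.8% of all genes), and 2 were lower (8.25%), Hyou1 at 43.9, 22.4 and 36.2 CPM and Atf4 at 633, 391 and 584 CPM. Hspa5 was at 1646, 1216 and 1323 CPM (-0.44), and the median member ratio was -0.08. The shortest class of all genes had a median of 0.57 here, with 57.9% of its genes higher, and its part was again not tested.

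Ssr4 and Sec61b were highest with Ndrg2-KO DCs in some other wound clusters as well. In a cluster led by Mmp12, Mmp13 and Arg1, Ssr4 stood at 89.8, 147 and 103 CPM in the control DC, Ndrg2-KO DC and blank hydrogel libraries and Sec61b at 191, 239 and 217 CPM. In a cluster led by Ly6c2 and Ccr2 they stood at 167, 242 and 169 CPM and at 292, 400 and 351 CPM. Blank hydrogels were instead the highest in a mixed T and mast cell cluster (Ssr4 at 174, 254 and 277 CPM) and in neutrophil-like cells (30.2, 38.6 and 44.6 CPM).

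Neutrophil-like cells, which are poor in secretory machinery, set the blank hydrogel library apart. Of 26 members 16 were higher with blank hydrogels than with control DCs (29.4% of all genes) and 0 lower (6.25%), with a median of 0.59 beside 0.23 for all genes. With Ndrg2-KO DCs 3 of 25 were higher than with control DCs (17.0%) and 2 lower (16.0%), and of 27 members 11 were lower than with blank hydrogels (30.7%) and 0 higher (6.45%). Dnajb9 stood at 127, 227 and 225 CPM in control DC, Ndrg2-KO DC and blank hydrogel wounds, and Hspa5 at 603, 711 and 793 CPM. Xbp1 was counted at 105, 57.2 and 81.2 CPM and Herpud1 at 130, 80.2 and 141 CPM, so the Ndrg2-KO DC library was the lowest for both. Serpinh1, which neutrophils are not known to make, was at 4.31, 3.68 and 8.20 CPM, and the fibroblast markers summed to 509, 367 and 459 CPM in these cells.

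In cultured DCs 11 members were lower after VD3 over all cells, while in mature DC-like cells alone 4 were lower and the median ratio was 0.08. Of 31 members over all cells 11 were lower than in untreated DCs (19.1% of all genes) and 0 higher (11.7%). Their median was -0.45 beside -0.08 over all genes. A ratio below 0 was found for 29, of which Syvn1, Ssr3 and Kdelr3 had intervals that hold 0. Calr stood at 568, 296 and 411 CPM in untreated, VD3 stimulated and Ndrg2-KO DCs, a ratio of -0.94 (-0.96 to -0.92) for VD3. Pdia6 was at 180, 95.6 and 151 CPM and Hspa5 at 290, 197 and 232 CPM, with ratios of -0.91 (-0.95 to -0.88) and -0.56 (-0.58 to -0.53) for VD3. Each heat shock family chaperone, lectin chaperone and disulfide isomerase had its lowest level of the DC libraries, over all cells, after VD3.

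Ddit3 and Ssr4 had the positive ratios. Ddit3 went from 26.1 CPM without to 33.7 CPM with VD3 (0.37) and Ssr4 from 401 to 481 CPM (0.26), while Sec61b was level at 1007 and 993 CPM. Trib3 was counted at 5.31, 2.75 and 1.43 CPM in untreated, VD3 stimulated and Ndrg2-KO DCs. The collagen chaperones Serpinh1 and Fkbp10 and the receptor Kdelr3 were at most 0.347, 0.0905 and 0.430 CPM in any DC library, and the ratio of Serpinh1 rests on 46 UMIs against 4.

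Over all cells, Ndrg2-KO and untreated DCs differed past the limit in 2 members, and in mature DC-like cells alone in 15. Of 30 members over all cells 1 was higher (20.7% of all genes) and 1 lower (22.7%), with a median of -0.13 beside -0.06 over all genes. The higher gene was Ssr3, the gamma subunit of TRAP, at 111, 110 and 189 CPM in untreated, VD3 stimulated and Ndrg2-KO DCs (0.77, 95% interval 0.74 to 0.80), and the lower gene was Trib3. Over all cells Ssr2 (98.5, 83.8 and 69.9 CPM) and Ssr4 (401, 481 and 376 CPM) were not highest in Ndrg2-KO DCs, unlike in the wound fibroblasts that received such cells. In mature DC-like cells Ssr4 was again not highest there (390, 417 and 392 CPM). Ssr2 (54.2, 57.7 and 58.0 CPM) and Sec61b (995, 1150 and 1417 CPM) were highest in Ndrg2-KO cells of that class. Syvn1, the ERAD ubiquitin ligase, stood at 9.89, 9.19 and 13.3 CPM.

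**Figure D5:**
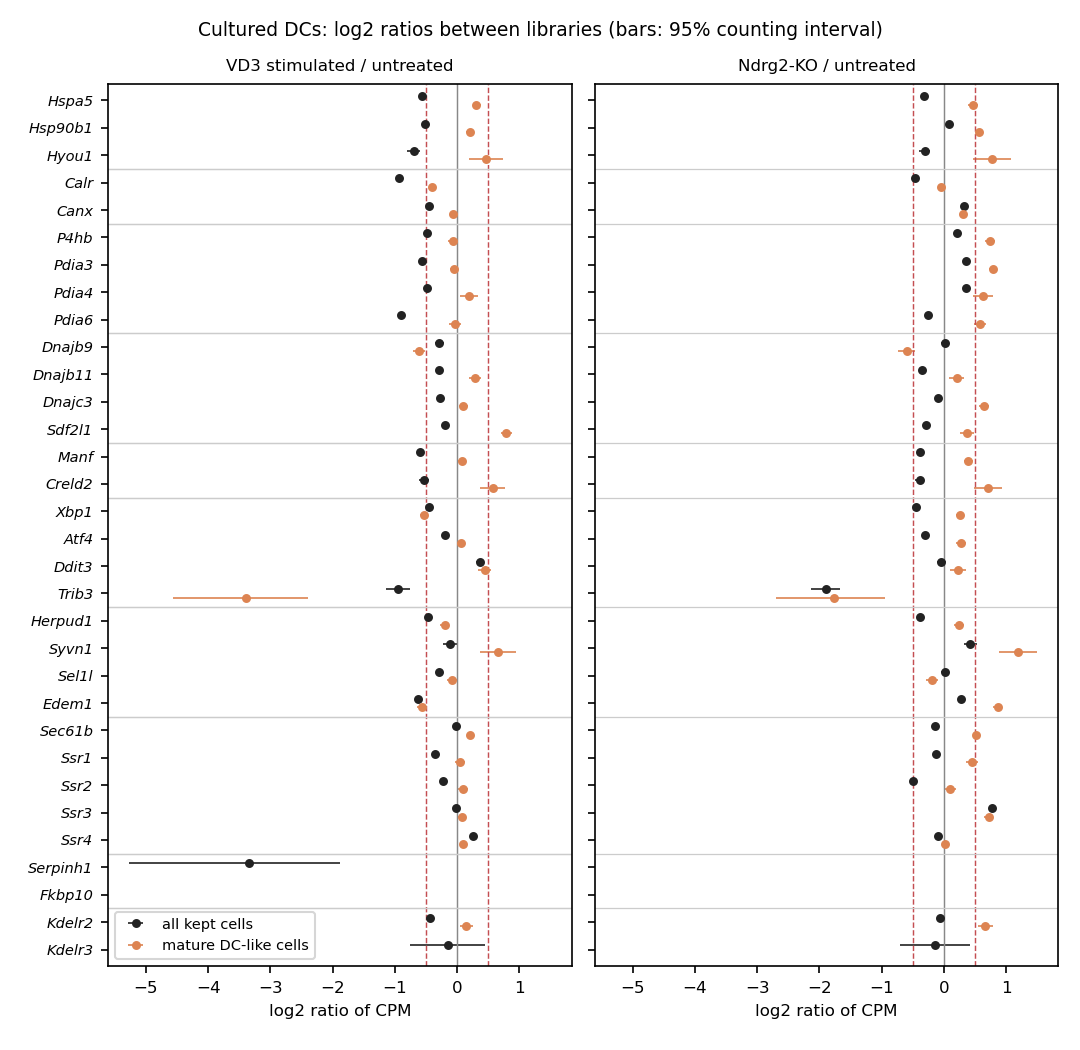
Log2 ratios of the members in cultured DCs, for VD3 stimulated and for Ndrg2-KO against untreated DCs, over all kept cells (black) and over mature DC-like cells (orange), with exact 95% intervals and the limits of the call. Over all cells, VD3 ratios lie below 0 for 29 of the 31 members with enough UMIs, where the intervals of Syvn1, Ssr3 and Kdelr3 hold 0. Ndrg2-KO ratios scatter on both sides around a median of -0.13.

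The makeup of the cultures differed, and both results changed within mature DC-like cells. These were clusters that passed the mature DC markers, with 2714, 3489 and 2112 cells of the untreated, VD3 stimulated and Ndrg2-KO cultures, and they came mainly from a separate cluster in each library (led by Eno3 and Fscn1, by Ndnf and H2-Q6, and by Htra1 and Klrd1). The members summed to 3053, 3195 and 3994 CPM there. Clusters of untreated DCs led by Elane and Prtn3 (1629 cells) and by Plet1 and Cxcl3 (1230 cells) held 6130 and 6305 CPM, and few VD3 stimulated cells fell into them (27 and 5 cells). A cluster almost wholly of VD3 stimulated cells, led by Gdf15 and Ms4a7 (1442 cells), held 4808 CPM.

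Within mature DC-like cells 3 of 29 members were higher after VD3 (13.3% of all genes) and 4 lower (11.1%), with a median of 0.08, the same as over all genes. Hspa5 stood at 79.1, 98.4 and 109 CPM in untreated, VD3 stimulated and Ndrg2-KO cells and Calr at 197, 148 and 190 CPM, so Hspa5 was not lower after VD3 in these cells. In Ndrg2-KO cells 13 of 29 were higher than in untreated ones (27.5%) and 2 lower (9.41%), with a median of 0.45 beside 0.21 over all genes. Edem1 was counted at 69.7, 47.1 and 127 CPM, Pdia3 at 83.9, 81.3 and 145 CPM and P4hb at 57.3, 54.7 and 95.8 CPM. Syvn1 stood at 3.74, 5.88 and 8.55 CPM, and Ndrg2-KO cells were highest for each of these genes. The lower members were Trib3 and Dnajb9, the latter at 43.3, 28.4 and 28.6 CPM.

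Promoter windows of the members were searched for exact letter strings, among them the ER stress element, the site through which ATF6 and XBP1 are known to act. The 250 bases before the start were taken from RefSeq (GRCm38.p6) for the 27 members with a window. No window was at hand for Hyou1, Manf, Ssr2, Fkbp10 and Kdelr2. Both strands were searched for CCAAT and CCACG with 9 bases between them (ERSE) and for ATTGG and CCACG with 1 base between them (ERSE-II). TGACGTG (UPRE) and TTGCATCA (an element bound by ATF4) were searched for as well. ERSE was found in 8 members (Hspa5, Hsp90b1, Calr, Canx, Pdia6, Dnajc3, Creld2 and Syvn1) and in 0.113% of 32851 windows. ERSE-II was found in Herpud1 (0.0304% of windows), UPRE in Hspa5 and Kdelr3 (1.65%) and TTGCATCA in Herpud1 (0.791%). The windows below are those of 3 members with such elements and of the translocon genes Ssr4 and Sec61b, which had the highest ratios in wound fibroblasts and held none of these letter strings. They are Hspa5 (chr2:34771840-34772089, plus strand), Pdia6 (chr12:17266339-17266588, plus strand), Herpud1 (chr8:94386179-94386428, plus strand), Ssr4 (chrX:73786773-73787022, plus strand) and Sec61b (chr4:47474411-47474660, plus strand), each written 5′ to 3′ on its gene's strand with the matches in capitals.
Hspa5: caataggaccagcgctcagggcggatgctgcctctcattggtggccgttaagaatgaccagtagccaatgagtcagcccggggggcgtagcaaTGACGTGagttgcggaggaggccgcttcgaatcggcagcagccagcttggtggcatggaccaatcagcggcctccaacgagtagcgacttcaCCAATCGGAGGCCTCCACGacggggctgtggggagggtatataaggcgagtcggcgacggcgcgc
Pdia6: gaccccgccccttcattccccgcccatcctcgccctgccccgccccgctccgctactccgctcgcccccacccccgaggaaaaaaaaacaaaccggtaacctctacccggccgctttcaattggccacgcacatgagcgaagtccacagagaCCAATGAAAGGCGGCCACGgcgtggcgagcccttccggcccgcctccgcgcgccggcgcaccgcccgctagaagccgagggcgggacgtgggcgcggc
Herpud1: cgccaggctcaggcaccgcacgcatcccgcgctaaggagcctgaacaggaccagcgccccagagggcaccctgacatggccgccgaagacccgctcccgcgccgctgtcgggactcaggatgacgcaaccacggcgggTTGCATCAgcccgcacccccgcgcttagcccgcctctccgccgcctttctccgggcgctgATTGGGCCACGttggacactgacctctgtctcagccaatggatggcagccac
Ssr4: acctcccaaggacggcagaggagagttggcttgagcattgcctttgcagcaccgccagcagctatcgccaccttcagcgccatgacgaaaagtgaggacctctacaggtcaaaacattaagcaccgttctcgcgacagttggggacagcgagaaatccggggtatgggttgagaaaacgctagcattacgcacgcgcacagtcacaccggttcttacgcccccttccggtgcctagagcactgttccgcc
Sec61b: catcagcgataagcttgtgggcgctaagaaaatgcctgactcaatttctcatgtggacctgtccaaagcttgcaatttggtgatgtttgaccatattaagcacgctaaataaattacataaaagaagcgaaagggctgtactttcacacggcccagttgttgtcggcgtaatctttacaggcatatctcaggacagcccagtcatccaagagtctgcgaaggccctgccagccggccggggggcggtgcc

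Among the members with a window, those with ERSE or ERSE-II did not have the higher median ratio in wound fibroblasts. The members without a window, among them the called Ssr2 and Manf, are in neither group. Kdelr3, called against blank hydrogels, has a UPRE match alone and is counted among those with neither element. Ndrg2-KO against control DC wounds gave a median ratio of 0.04 over the 9 members with an element (from -0.26 for Herpud1 to 0.49 for Pdia6) and 0.17 over the 17 with neither (up to 0.89 for Ssr4). Against blank hydrogels the medians were 0.22 and 0.30. Over all cells of VD3 stimulated DCs, all 9 members with an element and all but 2 of the 18 with neither had ratios below 0, with medians of -0.52 and -0.29, and the ranges overlapped. Ndrg2-KO DCs gave -0.25 and -0.09 over all cells. In mature DC-like cells alone the medians were instead 0.10 and 0.06 for VD3, with 5 of the 9 above 0, and 0.57 and 0.32 for Ndrg2-KO, with 8 of the 9 above 0. A match of letters is a description of these windows and was not tested as a binding site. A window without an exact match was not shown to lack a working element.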

How the data were processed

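The authors deposited raw UMI counts by gene and barcode, without normalization. Per the file headers, Cell Ranger was at version 3.1.0 for DCs and 6.0.0 for wounds. The methods of the study name mm10, whereas the submitters' processing notes list mm9 and Seurat 3.1.1. No reads were processed here. Doublets were kept, because the automatic limit of Scrublet (in Scanpy 1.11.5) marked at most 0.873% of cells. Wound and DC libraries were clustered separately in Seurat 5.3.0 (R 4.3.3) on 2000 variable genes without the members, with 15 principal components, 15 neighbours and Louvain resolution 0.5. Naming a cluster took 3 or more of a cell type's markers at 50 CPM and 2-fold the level of other cells. Counts were summed in Python 3.11.15 with SciPy 1.17.1. Intervals are exact (Poisson for CPM, conditional binomial for ratios) at 95%. Transcript lengths are from GENCODE M21 (GRCm38). The kept depth was 116461484 to 143627482 UMIs per DC library and 29675507 to 49240341 per wound library. The 32 genes and the lists, markers and alternatives were chosen with earlier results of these data known. The text names every member and, per pathway list, genes from the 2 highest and 2 lowest ratios, besides Ppib and Plod2. The scripts were tested on simulated data.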

Additional observations from a re-analysis of the deposited data

How the results depend on the processing

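With 1 library per group, a difference between conditions and one between libraries cannot be told apart under any setting. No paired analysis was possible because each group has 1 library. The depth limits Trib3, Sdf2l1, Syvn1 and Creld2 in wounds, which had the fewest UMIs. Where a value moved, the cause was not tested unless the setting itself is the cause. Numbers of members past the limit are followed in brackets by the percent of all genes higher and lower under the same setting.

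The median ratio of Ndrg2-KO against control DC wounds in fibroblast-like cells was above 0 under each alternative run. It was 0.10 with median-ratio scaling, 0.10 with the length class median subtracted, and 0.28 in the Myoc and Apod cells and 0.28 in the Tnc and Crabp1 cells alone. The members past the limit numbered 2 after the length correction (9.94 and 8.42), 9 in the Tnc and Crabp1 cells (20.2 and 6.26), 0 at a limit of 1.0 (4.03 and 1.36) and 14 at 0.25 (32.7 and 18.6). Against blank hydrogels the median was 0.11 with a cell limit of 300 UMIs, 0.11 at resolution 1.0, 0.12 with members allowed among the variable genes, 0.12 for cells chosen by 3 markers and 0.02 in the Tnc and Crabp1 cells. There was 1 member past the limit under each of these settings, where 7.79% to 9.19% of all genes were higher and 6.69% to 7.52% lower. The number was 10 in the Myoc and Apod cells (14.6 and 9.88), 10 after thinning to 2000 UMIs (19.1 and 8.12), 1 at a limit of 1.0 (2.71 and 1.04) and 19 at 0.25 (29.9 and 18.4).

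Blank hydrogel against control DC wounds gave medians of 0.17, 0.16, 0.14 and 0.16 under the same first 4 settings, with 4, 4, 3 and 3 members past the limit (10.5 to 11.2 and 3.68 to 3.94), where the value above was -0.09 and 0 members. In the Tnc and Crabp1 cells they were 0.30 and 8 (17.2 and 7.31). The number was 1 without the highest 6% of Scrublet scores (5.84 and 4.95), 1 for the mean over cells (6.5 and 5.34), 2 after thinning (6.54 and 7.75) and 3 at a limit of 0.25 (18.5 and 14.4). The share of member UMIs per cell was 0.80% (control DCs) and 1.0% (Ndrg2-KO DCs) when thinned to 1000 UMIs, and 0.875%, 1.01% and 0.776% (blank hydrogels) when not thinned. The ratio of Sdf2l1 against control DCs turned to -0.41 after thinning to 2000 UMIs, which leaves still fewer UMIs of this gene.

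For Ndrg2-KO against untreated DCs the median was -0.04 for the mean over cells, -0.22 without mitochondrial and ribosomal protein genes, -0.07 with median-ratio scaling and 0.45 in mature DC-like cells. The number was 4 for the mean over cells (21.7 and 21.2), 5 without mitochondrial and ribosomal protein genes (17.9 and 27.3), 15 in mature DC-like cells (27.5 and 9.41), 5 under 5% mitochondrial UMIs (22.7 and 20.1), 1 at a limit of 1.0 (10.2 and 9.28) and 19 at 0.25 (31.0 and 37.1). For VD3 stimulated against untreated DCs the median was -0.51 under 5% mitochondrial UMIs, -0.33 for the mean over cells, -0.35 without mitochondrial and ribosomal protein genes, -0.37 with median-ratio scaling and 0.08 in mature DC-like cells. The number was 6 for the mean over cells (10.1 and 16.3), 7 without mitochondrial and ribosomal protein genes (15.2 and 15.9), 7 in mature DC-like cells (13.3 and 11.1), 1 at a limit of 1.0 (4.18 and 7.44) and 24 at 0.25 (23.3 and 34.7). For the mean over cells Trib3 turned to 0.18. In mature DC-like cells Hspa5 turned to 0.31, Hsp90b1 to 0.20, Hyou1 to 0.46, Manf to 0.08 and Creld2 to 0.57. The length correction, the removal of the immunoglobulin barcode, the finer clusters and the mature DC-like cells were chosen after seeing the data.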

Other observations

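Wound clusters that the marker lists did not name also differed in these genes. In a cluster led by Mmp12, Mmp13 and Arg1 (153, 679 and 354 cells of control DC, Ndrg2-KO DC and blank hydrogel wounds) the 32 genes summed to 5527, 5775 and 5494 CPM. In a cluster led by the monocyte genes Ly6c2 and Ccr2 and class II genes (190, 401 and 418 cells) they summed to 5759, 5386 and 6576 CPM, and in a mixed T and mast cell cluster with Il17a and Mcpt4 (130, 243 and 101 cells) to 3849, 3804 and 4691 CPM. Blank hydrogel wounds were the highest in both of the latter. Erythroid-like cells of Ndrg2-KO DC wounds held 893 CPM. In macrophage-like cells 4 of 12 oligosaccharyltransferase genes were higher with Ndrg2-KO than with control DCs and 0 lower, with a median of 0.28, beside the 16.8% of all genes that were higher. These ratios were not corrected for transcript length either.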
